A study of Rattus norvegicus with 6 samples.

Results

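The 10 genes described here, out of 16209 in the deposited table, are genes of resident Kupffer cells: Clec4f, Marco, Cd163, Vsig4, Cd5l, Timd4, Csf1r, C1qa, C1qb and C1qc. They were chosen by name, all 10 were found in the table, and all 10 were among the 14639 genes with enough reads to be tested. Bulk RNA sequencing measured them in 6 liver samples of rats with liver fibrosis: 3 from rats treated with 10 mg/kg/day of ginkgetin, which is a biflavone of plants, and 3 from rats given vehicle. All of these livers were fibrotic, so there is no healthy liver to compare with. The sources used here do not give the strain, age or sex of the rats or what made their livers fibrotic. The ginkgetin columns carry the replicate numbers of the labels, while the other 3 columns are named TAA1 to TAA3. They were taken as the vehicle livers because the series has no other group, and all fold changes depend on this reading of the names. The comparison asks how the treatment changed these genes in the fibrotic liver.

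Kupffer cells are the macrophages that live in the sinusoids of the liver, where they take up bacteria, dead cells, old red cells and immune complexes from the blood. In mice their identity is set by signals from the neighbouring endothelial, stellate and liver parenchymal cells, including Notch and BMP ligands, and they are kept alive by ligands of the receptor that Csf1r encodes. During injury, resident cells can be lost and monocytes enter from the blood. In mice, Clec4f and Timd4 mark mainly resident cells, whereas Csf1r and the 3 C1q genes are also used by recruited macrophages.

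None of the 10 genes passed the threshold in the main test, and their means did not all differ in 1 direction. Marco, Timd4, Clec4f and Cd5l had means 2.31-fold to 6.21-fold higher in ginkgetin livers on the log2(value + 1) scale. Csf1r, C1qa, C1qb and C1qc had lower means with ginkgetin, at 0.51-fold to 0.73-fold, and were each highest in vehicle liver TAA3. Vsig4 and Cd163 lay between, with higher mean log2 levels and wide intervals that included 0. With limma, 0 of 10 genes had a Benjamini-Hochberg adjusted p under 0.05, where 0.0137% of all genes tested did. At an unadjusted p under 0.05 there were 4 of 10, namely Marco, Timd4, Clec4f and Cd5l, against 20.2% of all genes tested. That count was 0 without ginkgetin replicate 2, 1 without ginkgetin replicate 1, 1 without TAA2 and 5 without TAA1. Over all genes tested it was 1918, 2808, 2224 and 4123 in the same order, against 2963 with all livers. The median log2 fold change of the 10 was 0.59, against -0.02 over all genes tested.

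Upstream sequence is shown for Clec4f and Marco, of the genes with higher means, and for the pair of C1q genes whose profiles were closest. Each line holds the 250 bases before the gene's start in the RefSeq assembly GRCr8, read 5′ to 3′ on the gene's own strand. The windows lie at chr4:117696408-117696657, minus strand, for Clec4f, at chr13:34201256-34201505, minus strand, for Marco, at chr5:154419934-154420183, minus strand, for C1qa, and at chr5:154407828-154408077, minus strand, for C1qb. Capitals in the first pair mark TGGGAA, a core of sites for RBPJ, the DNA-binding partner of Notch. Capitals in the second pair mark TGCTGA or its reverse complement TCAGCA, a part of sites for MAF factors.
Clec4f: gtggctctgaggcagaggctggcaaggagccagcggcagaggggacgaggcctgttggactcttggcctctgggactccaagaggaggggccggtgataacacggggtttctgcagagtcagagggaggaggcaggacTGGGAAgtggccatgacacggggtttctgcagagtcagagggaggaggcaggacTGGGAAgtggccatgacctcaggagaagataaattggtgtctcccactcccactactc
Marco: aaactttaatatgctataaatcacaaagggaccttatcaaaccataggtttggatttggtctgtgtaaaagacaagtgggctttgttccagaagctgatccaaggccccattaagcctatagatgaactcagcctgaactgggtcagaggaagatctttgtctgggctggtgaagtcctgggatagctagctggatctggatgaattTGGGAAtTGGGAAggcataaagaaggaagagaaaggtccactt
C1qa: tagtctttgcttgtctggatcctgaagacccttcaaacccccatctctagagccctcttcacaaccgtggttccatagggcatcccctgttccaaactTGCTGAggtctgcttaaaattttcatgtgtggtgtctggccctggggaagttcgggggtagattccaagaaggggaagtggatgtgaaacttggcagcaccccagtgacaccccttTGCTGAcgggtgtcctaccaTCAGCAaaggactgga
C1qb: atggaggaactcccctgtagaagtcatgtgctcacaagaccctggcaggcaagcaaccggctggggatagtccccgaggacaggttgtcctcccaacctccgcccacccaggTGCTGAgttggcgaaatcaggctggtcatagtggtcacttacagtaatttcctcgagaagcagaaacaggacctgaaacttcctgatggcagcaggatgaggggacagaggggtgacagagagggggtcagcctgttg

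The RBPJ letters occurred 2 times upstream of Clec4f and 2 times upstream of Marco. In Clec4f they sat once in each of 2 exact tandem copies of 54 bases, from base -151 to base -44 relative to the start. The MAF letters occurred 3 times upstream of C1qa and 1 time upstream of C1qb. Of the 10 genes, 9 had an entry in the promoter table. On either strand, 3 of these 9 windows held the RBPJ letters, against 22.1% of 33469 windows of the same length, and 4 held the MAF letters, against 15.1%. The RBPJ letters were also upstream of Csf1r, whose mean was lower with ginkgetin, and the MAF letters upstream of Cd5l and Timd4, whose means were higher, so neither motif divides the genes by direction. Another motif searched, GAGGAA for the myeloid factor PU.1, was in 4 of 9 windows and in 23.3% of all. These are matches of letters, not binding sites, and no binding was measured here.

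Clec4f encodes a C-type lectin that binds sugars on glycoproteins and is a Kupffer cell receptor of rodents. It had 3300, 3589 and 2171 normalized reads in ginkgetin replicates 1 to 3, against 2726, 505 and 312 in vehicle livers TAA1, TAA2 and TAA3. All ginkgetin livers and TAA1 were high and TAA2 and TAA3 were low, so the groups overlapped through TAA1. The log2 fold change was 1.97 (SE 0.722, 95% interval 0.31 to 3.62, limma adjusted p = 0.191). Without TAA1 it was 2.89 and passed (adjusted p = 0.017), in a comparison that called 696 of all genes instead of 2, and without any other liver the adjusted p was 0.30 to 0.415. It was 1.33 without TAA3, and 1.34 in edgeR and 1.36 in DESeq2 on whole reads (adjusted p = 0.355 and 0.254).

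Marco encodes a collagen-like scavenger receptor that binds bacteria and particles. It had 1226, 839 and 174 normalized reads in ginkgetin replicates 1 to 3, against 286, 62.4 and 40.5 in TAA1, TAA2 and TAA3. Ginkgetin replicate 3 lay below TAA1, and both groups spread about equally, 7.03-fold with ginkgetin and 7.06-fold with vehicle. The log2 fold change of 2.63 (SE 0.872, 95% interval 0.63 to 4.64, limma adjusted p = 0.169) was above that of the other genes in the main test. Timd4 was above it with quantile scaling (2.93, against 2.83 for Marco), in DESeq2, without ginkgetin replicate 1 and without TAA3, where Marco was at 2.07. Marco passed without TAA1 (3.46, limma adjusted p = 0.0439), where 696 of all genes did. It also passed in DESeq2 on whole reads (2.53, adjusted p = 0.0325), where 1.97% of all genes with an adjusted p were called higher with ginkgetin. Marco was not called by edgeR on the same reads (2.53, adjusted p = 0.173).

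Timd4 encodes a receptor for phosphatidylserine, the lipid that dying cells expose. It was close to the limit of detection, with 7, 14 and 6 reads in ginkgetin replicates 1 to 3, against 1, 1 and 5 in TAA1, TAA2 and TAA3. After scaling these were 7.74, 16.2 and 7.42 normalized reads with ginkgetin, against 1.19, 0.832 and 3.07 with vehicle. Timd4 was the only member whose groups did not overlap: 1 of 10 was higher in every ginkgetin liver, where 11.4% of all genes tested were, and 0 of 10 were lower in every one, where 16.1% were. Its log2 fold change was 2.09 (SE 0.663, 95% interval 0.57 to 3.62, limma adjusted p = 0.156). With 5 in place of 1 added before taking logs it was 1.18.

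Cd5l encodes a scavenger-receptor-like protein that macrophages secrete. It had 1820, 1783 and 887 normalized reads in ginkgetin replicates 1 to 3, against 1034, 425 and 528 in TAA1, TAA2 and TAA3. Ginkgetin replicate 3 lay below TAA1 and the other ginkgetin livers lay above all vehicle livers. The log2 fold change was 1.21 (SE 0.416, 95% interval 0.25 to 2.17, limma adjusted p = 0.176), and it ran from 0.94 to 1.58 with 1 liver left out, without passing.

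**Figure D1:**
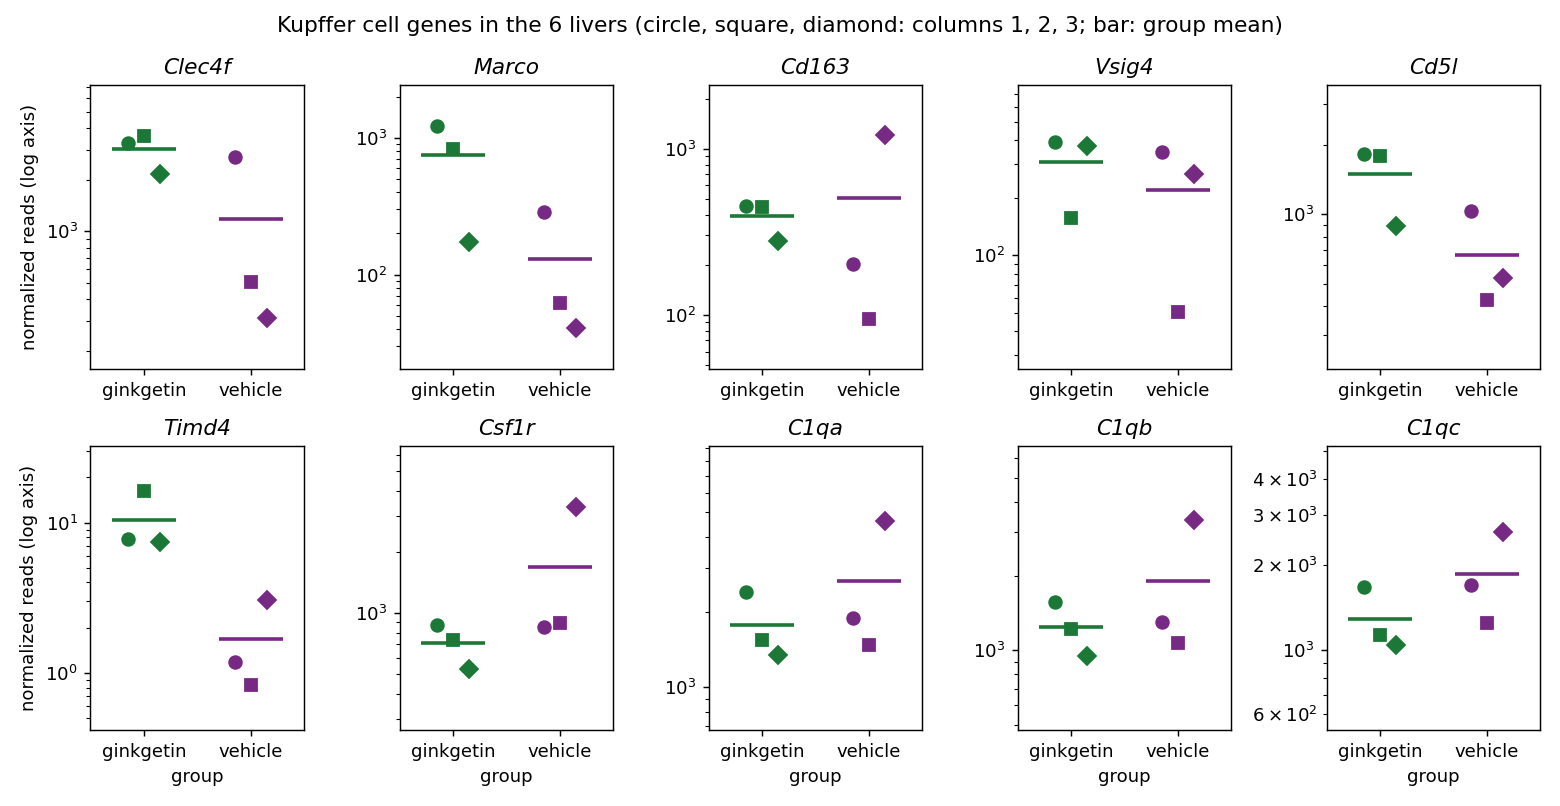
Normalized reads of each Kupffer cell gene (log axis, a scale for each panel) in 3 ginkgetin and 3 vehicle livers. Circles, squares and diamonds are the columns numbered 1, 2 and 3 of each group and bars are group means. Clec4f, Marco and Cd5l are high in TAA1 relative to the other vehicle livers, while Csf1r and the C1q genes stand out in TAA3.

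Vsig4 encodes a receptor for fragments of complement C3 through which Kupffer cells catch opsonized bacteria. It had 390, 157 and 375 normalized reads in ginkgetin replicates 1 to 3, against 346, 50.7 and 265 in TAA1, TAA2 and TAA3. Only TAA2 lay outside the range of the ginkgetin livers. The log2 fold change was 0.76 (SE 0.705, 95% interval -0.86 to 2.38, limma adjusted p = 0.557), and without TAA2 it was -0.091.

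Cd163 encodes the receptor that takes up haemoglobin bound to haptoglobin, known in rats as the ED2 antigen. It had 450, 445 and 278 normalized reads in ginkgetin replicates 1 to 3, against 202, 94.0 and 1207 in TAA1, TAA2 and TAA3. The vehicle livers lay on both sides of the ginkgetin livers, with a spread of 12.8-fold, the widest of the 10 genes within a group, against 1.62-fold with ginkgetin. The mean of the values was lower with ginkgetin, 391 ± 97.8 normalized reads with ginkgetin and 501 ± 614 with vehicle (SD, n = 3 each), while the mean of the log2 values was higher. The log2 fold change of 0.42 (SE 0.803, 95% interval -1.42 to 2.27, limma adjusted p = 0.788) was 1.47 without TAA3 and -0.37 without TAA2, and it was also below 0 with equal library totals and in both count tests.

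Csf1r encodes the receptor for the growth factors CSF1 and IL-34, on which macrophages depend. It had 875, 737 and 529 normalized reads in ginkgetin replicates 1 to 3, against 849, 891 and 3322 in TAA1, TAA2 and TAA3. TAA1 and TAA2 lay near the ginkgetin livers and TAA3 far above. The log2 fold change was -0.96 (SE 0.520, 95% interval -2.15 to 0.24, limma adjusted p = 0.327) and was -0.32 without TAA3. Its ligand gene Csf1 had 158, 109 and 94.0 normalized reads with ginkgetin, against 136, 166 and 195 with vehicle (log2 fold change -0.48, adjusted p = 0.40). Il34, the other ligand gene, had 91.8, 124 and 68.0 with ginkgetin, against 53.4, 104 and 344 with vehicle (-0.43, adjusted p = 0.718). All 4 ligand and growth factor genes tested had lower means with ginkgetin (median -0.50), and 0 passed.

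C1qa, C1qb and C1qc encode the chains of C1q, which starts the classical complement pathway by binding antibody on a target and also coats dying cells. Macrophages are its main source. C1qa had 2406, 1549 and 1347 normalized reads in ginkgetin replicates 1 to 3, against 1887, 1474 and 4605 in TAA1, TAA2 and TAA3. C1qb had 1575, 1215 and 949 with ginkgetin, against 1304, 1070 and 3362 with vehicle. C1qc had 1672, 1136 and 1049 with ginkgetin, against 1698, 1252 and 2612 with vehicle. All of them were highest in TAA3, and TAA1 and TAA2 lay within or close to the ginkgetin range. The log2 fold changes were -0.45, -0.46 and -0.49 (SE 0.468, 0.450 and 0.349, limma adjusted p = 0.605, 0.585 and 0.444). The 95% intervals reached from -1.53, -1.49 and -1.30 to 0.63, 0.58 and 0.31, so a value 1 log2 unit below 0 lies within each of them. Without TAA3 the log2 fold changes were 0.038, 0.047 and -0.21.

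The 3 chains are neighbours on chromosome 5 of the RefSeq assembly with 0 other genes between them, in the order C1qb, C1qc, C1qa. The ratio of C1qa to C1qb reads was 1.53, 1.28 and 1.42 with ginkgetin, against 1.45, 1.38 and 1.37 with vehicle, a range of 1.20-fold over the 6 livers. The ratio of C1qa to C1qc ranged 1.59-fold. Over the same livers the ratio of Clec4f to Csf1r reads ranged 51.8-fold, being 3.77, 4.87 and 4.10 with ginkgetin, against 3.21, 0.567 and 0.094 with vehicle. These are ratios of reads, not corrected for transcript length, so their changes between livers can be read and their absolute size cannot.

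**Figure D2:**
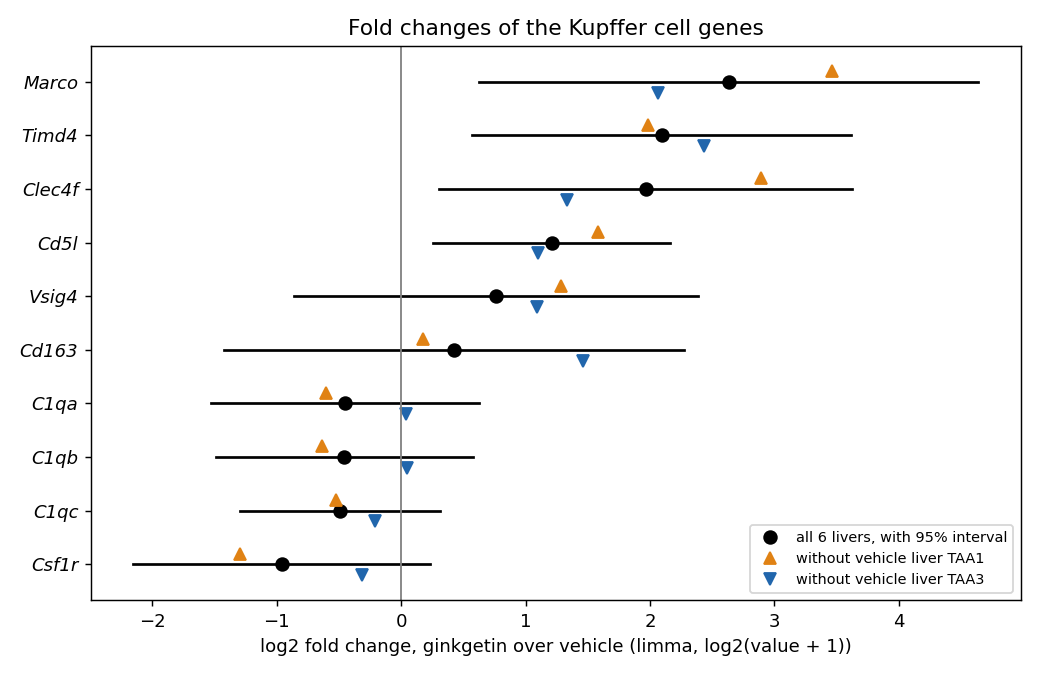
Log2 fold changes of the 10 genes, ginkgetin over vehicle, with 95% intervals from limma (black), and the values without vehicle liver TAA1 (orange) and without TAA3 (blue). Marco, Timd4, Clec4f and Cd5l have intervals above 0 before adjustment, from 0.63, 0.57, 0.31 and 0.25 upwards. Without TAA3, C1qa and C1qb sit near 0 and C1qc at -0.21.

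The vehicle livers differed among themselves, and TAA3 stood apart. Reads assigned to genes were 13372367 to 14933853 per library. The sums of the deposited normalized reads were less alike. They were 1.65e+07, 1.63e+07 and 1.70e+07 with ginkgetin, against 1.59e+07, 1.18e+07 and 8.27e+06 in TAA1, TAA2 and TAA3. Alb, the albumin gene, took 6.56% to 12.1% of reads in ginkgetin livers, against 2.89% to 9.44% in vehicle livers, with the lowest share in TAA3. The mean log2 level of 12 hepatocyte markers, centred over the 6 livers, was 0.43, 0.66 and 0.85 with ginkgetin, against 0.41, -0.23 and -2.12 in TAA1, TAA2 and TAA3. That of 11 stellate cell and myofibroblast markers was -0.33, -0.59 and -1.05 with ginkgetin, against -0.53, -0.21 and 2.71 with vehicle. In bulk tissue, fewer cells of a type and less RNA per cell cannot be told apart, and the part of these differences in the values above was not tested.

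Genes that macrophages and other leukocytes share mostly had lower means with ginkgetin. Of 14 pan-macrophage and leukocyte genes tested, 13 had lower means with ginkgetin and 0 passed, at a median log2 fold change of -1.26. Their summed value was 10159, 5569 and 5396 normalized reads with ginkgetin, against 9946, 9776 and 57899 in TAA1, TAA2 and TAA3. TAA1 and TAA2 lay within the ginkgetin range and TAA3 far above it. Cybb, the NADPH oxidase subunit of phagocytes, had 568, 379 and 234 normalized reads with ginkgetin, against 738, 714 and 2689 with vehicle (-1.60, limma adjusted p = 0.175). Of 13 recruited monocyte genes listed, 8 were tested, and 7 of these 8 had lower means (median -2.00). Their summed value did not follow this median, at 13658, 30938 and 21354 with ginkgetin, against 17631, 15961 and 21798 with vehicle. Scar-associated macrophage genes were lower in 9 of 9 (median -3.19), and 0 passed in either list. The centred level of the scar-associated list was -1.09, -1.92 and -2.50 with ginkgetin, against 0.52, 1.0 and 4.0 in TAA1, TAA2 and TAA3. Markers of lymphocytes (8 of 10 lower, median -0.27) and of liver endothelium (7 of 9 higher, median 0.75) also had 0 members passing. The same held for markers of hepatocytes (12 of 12 higher, median 1.25), stellate cells and myofibroblasts (8 of 11 lower, median -1.62) and cholangiocytes (9 of 9 lower, median -3.21). No gene of these lists that was in the table was at 0 in all 6 livers.

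**Figure D3:**
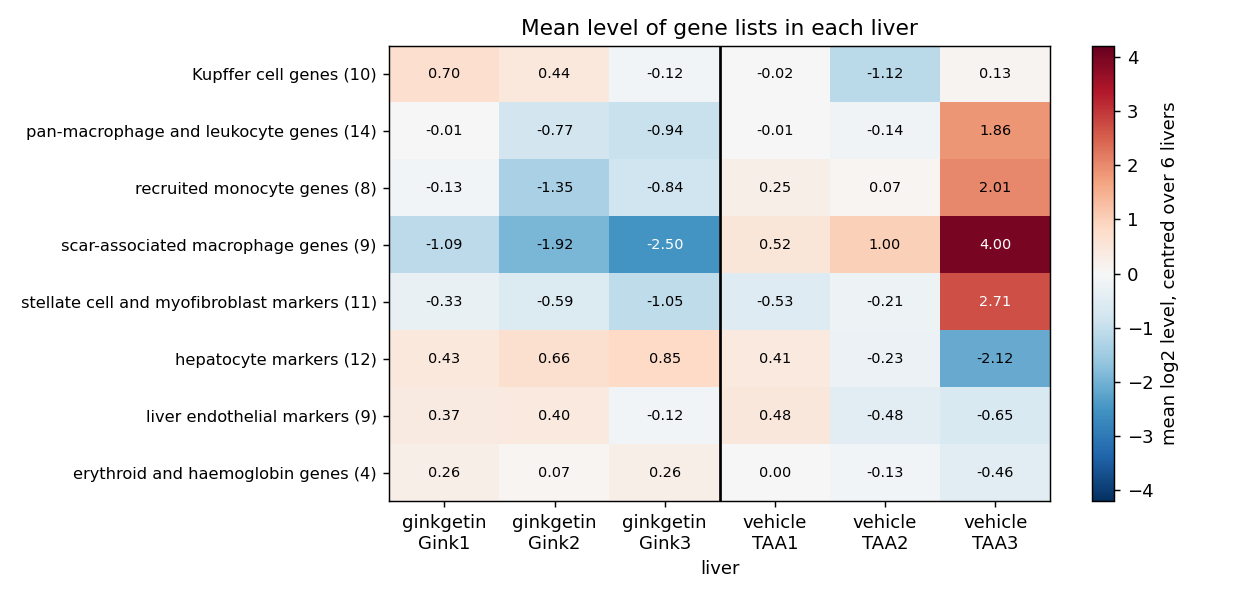
Mean log2 level of each gene list in each liver, centred over the 6 livers, with the number of genes tested in brackets (red higher, blue lower). The scar-associated macrophage genes are between -2.50 and -1.09 with ginkgetin and between 0.52 and 4.0 with vehicle. The mean of the Kupffer cell genes ranges from -1.12 to 0.70 and does not follow them, but it averages genes with unlike patterns. Csf1r, C1qa, C1qb and C1qc are each highest in TAA3 and lowest in ginkgetin replicate 3, as the scar-associated list is, and Cd163 is highest in TAA3 too.

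Levels were also set against the pan-macrophage genes of the same liver, as a gene's log2 level minus the mean of the 14 genes. That mean was 8.70 with ginkgetin and 9.84 with vehicle, so the subtraction adds 1.14 to the difference of every gene alike. All 10 Kupffer cell genes then had higher means with ginkgetin, as did 83.6% of all genes tested, whose median difference was 1.12. The 4 genes that turn to a higher mean, Csf1r, C1qa, C1qb and C1qc, do so through this shift, and their differences lie below that median. Relative levels did not overlap between groups for 7 of 10, all higher with ginkgetin, where 26.2% of all genes tested were. For Clec4f they were 2.43, 3.30 and 2.75 with ginkgetin, against 2.15, -0.15 and -2.84 in TAA1, TAA2 and TAA3. For Marco they averaged 0.44 ± 1.15 with ginkgetin and -3.34 ± 2.33 with vehicle (SD, n = 3 each), and for Cd5l 1.77 ± 0.45 with ginkgetin and -0.58 ± 1.43 with vehicle. C1qa averaged 2.04 ± 0.06 with ginkgetin and 1.35 ± 0.29 with vehicle, a difference of 0.69, against 3.11 for Clec4f. Csf1r stayed close to the pan-macrophage genes in every liver, at 0.75 ± 0.25 with ginkgetin and 0.57 ± 0.10 with vehicle. Without TAA3 the differences were 1.83 for Clec4f, 2.57 for Marco, 1.97 for Cd163, 1.60 for Cd5l and 0.54 for C1qa. They were 0.29 for C1qc and 0.18 for Csf1r. The pan-macrophage mean was 9.27 in TAA1 and 9.14 in TAA2, above the 8.70 with ginkgetin, so a shift in every gene remains without TAA3. Before the subtraction, the log2 fold change of C1qa without TAA3 was 0.038. The share of all genes was not computed without TAA3.

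**Figure D4:**
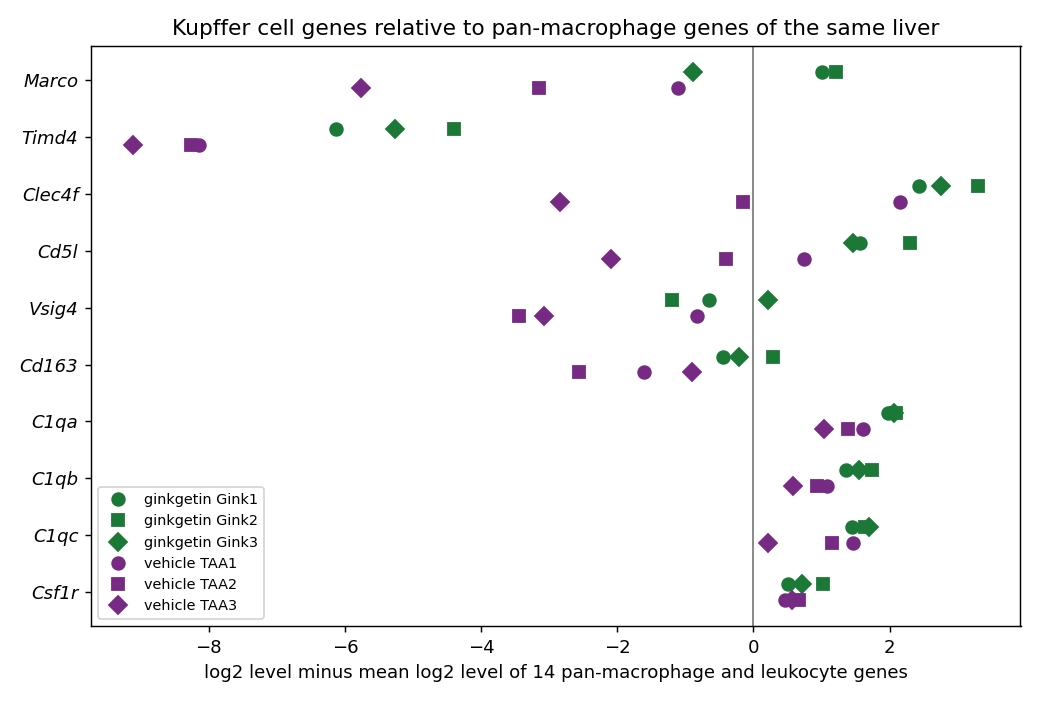
Log2 level of each Kupffer cell gene minus the mean log2 level of 14 pan-macrophage and leukocyte genes in the same liver, for 3 ginkgetin (green) and 3 vehicle livers (purple). The subtraction moves every gene to the right by 1.14 with ginkgetin relative to vehicle. Ginkgetin livers lie to the right of all vehicle livers for 7 genes, and not for Vsig4, Csf1r and C1qc.

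The same subtraction with hepatocyte markers, chosen after the values were seen, shifts the other way. The mean log2 level of the 12 markers was 15.2 with ginkgetin and 13.9 with vehicle, so every difference falls by 1.29 alike. Marco, Timd4 and Clec4f, 3 of the 10, had higher means with ginkgetin on this scale and 7 had lower means, as did 94.9% of all genes tested. Without TAA3 there were 6 with higher and 4 with lower means, since Cd163 (0.91), Vsig4 (0.53) and Cd5l (0.54) then lay above 0. TAA3 had the lowest level of these markers (-2.12, centred over the 6 livers), so leaving it out makes the shift smaller for every gene alike. The share of all genes was not computed without TAA3 on this scale. For Clec4f the relative levels were -3.26, -3.37 and -4.28 with ginkgetin, against -3.52, -5.30 and -4.11 in TAA1, TAA2 and TAA3, and the groups overlapped. The difference was 0.67, against 3.11 relative to the pan-macrophage genes. The groups did not overlap for C1qc, 1 of the 10, which was lower with ginkgetin, where 34.6% of all genes tested were. The level of hepatocyte markers was lowest in TAA3 and next lowest in TAA2, as the Clec4f values were. Within the ginkgetin group it was highest in replicate 3, where Clec4f was lowest. The part of the hepatocyte level in the Clec4f values was not tested.

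Each gene's profile over the 6 livers was compared with those of 10205 genes with a mean of at least 50 normalized reads, by the root mean square difference of centred log2 levels. C1qa and C1qb were each other's nearest gene, at 0.0796 log2 units. Csf1r was nearest to Vav1, a signalling protein of blood cells, at 0.0946, and Cd163 to Msr1, another macrophage scavenger receptor, at 0.203 and then to Stom and Mrc1. Clec4f was nearest to Clec4g, a lectin of liver endothelium, at 0.31, followed by Cyp3a23/3a1, a drug-metabolizing enzyme gene of hepatocytes, and Acot4. Marco had no close neighbour: Il1a, an interleukin gene, lay at 0.658 and Clec4f came next at 0.74. Timd4 was nearest to Cers6 at 0.404, Cd5l to Itga2b at 0.213, C1qc to Wdr41 at 0.0769 and Vsig4 to the globin gene Hba-a3 at 0.383, whose reads may be shared with near-identical copies. With 6 livers that share a few large differences, many genes have similar profiles: C1qc ranked only 40 among the genes nearest to C1qa.

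Genes tied to Kupffer cell function gave 0 calls in every list. Transcription factors of Kupffer cells had lower means in 9 of 12 (median -0.67). Their centred level was -0.08, -0.02 and -0.47 with ginkgetin, against -0.34, -0.04 and 0.95 in TAA1, TAA2 and TAA3. Only TAA3 lay above all the ginkgetin livers. Rxra, a partner of nuclear receptors, was an exception (log2 fold change 1.86, limma adjusted p = 0.0886). Its values were 734, 1926 and 784 normalized reads with ginkgetin, against 304, 295 and 257 with vehicle. Of 11 niche signal genes, 7 had lower means (median -0.18). Gdf2, which encodes BMP9 of stellate cells, had 240, 734 and 361 with ginkgetin, against 209, 104 and 60.2 with vehicle (1.86, adjusted p = 0.134). The membrane-bound chemokine gene Cx3cl1 had 60.8, 41.7 and 7.42 with ginkgetin, against 204, 350 and 258 with vehicle (-3.24, adjusted p = 0.0936). Irf8 (-0.94, adjusted p = 0.169) and Tgfb1 (-1.60, adjusted p = 0.158) also had lower means with ginkgetin. The groups did not overlap for Rxra, Gdf2, Cx3cl1, Irf8 or Tgfb1, which were named for having the smallest p values of their lists. Of all 12 transcription factor genes, 1 was higher and 1 was lower without overlap. Of all 11 niche signal genes, 2 were higher and 3 were lower without overlap. The shares over all genes tested were 11.4% in the higher and 16.1% in the lower direction.

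Other uptake receptors were mostly lower with ginkgetin, in 11 of 16 (median -0.62). Axl, a receptor for dead cells, had 570, 450 and 313 normalized reads with ginkgetin, against 724, 635 and 1243 with vehicle (-0.94, limma adjusted p = 0.181). Genes of iron and haem handling were higher in 4 and lower in 6 of 10 (median -0.27). Hmox1, which degrades haem, had 703, 797 and 590 with ginkgetin, against 483, 1035 and 13017 with vehicle, with a log2 fold change of -1.43 (adjusted p = 0.45). TAA3, where Cd163 was highest too, lay far above all other livers. Haemoglobin and erythroid genes had higher means in 3 of 4 (median 0.57). Complement genes that act with or after C1q, most of them made by hepatocytes, were higher in 9 of 11 (median 0.59), and their centred level was lowest in TAA3, at -1.0, where the C1q genes were highest.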

How the data were processed

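Per the labels' protocols, total RNA of liver was made into libraries with a SMARTER kit for mRNA. The submitters' processing notes name the build mRatBN7.2. What aligned and counted the reads, with which annotation and strand, was not given in the sources used here. The deposited values are a signal, reads per gene divided by 1 factor per library: 99.7% of rows gave whole reads, within 0.02, when divided by their library's lowest value above 0, and they are not corrected for length. The main test was limma 3.58.1 (R 4.3.3; trend, robust) on log2(value + 1). It covered genes that reached 1 in at least 3 libraries, with Benjamini-Hochberg adjustment over 14639 genes at 0.05. edgeR 4.0.16 (TMM, quasi-likelihood) and DESeq2 1.42.0 were run on the recovered whole reads and called 0 and 1380 of all genes (2915 at an unadjusted p under 0.05 in edgeR). The table does not name its normalization. The scripts were tested on simulated data. Whether each sample is its own animal is not said in the labels, so the p-values may reflect technical spread alone.

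The 10 members and the 15 other gene lists were chosen with earlier results of these data known, so list counts and medians are descriptions. Genes outside the 10 could be named with a fold change if they had 1 of the 3 smallest p values of their list, or as 1 of the 3 nearest profiles to a member, and not all of these are named. Alb is outside this rule and describes the tissue. Spp1, Stab2, Itgam and Fcgr2b stand in more than 1 list. Vehicle columns are mapped to the group and to no single sample. Sequences are from RefSeq (GRCr8), used for names, gene neighbours and sequence only. Profiles were compared by root mean square difference. Alternatives were the added constant, filters, scaling, count tests, a block on the column number and each liver left out.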

Additional observations from a re-analysis of the deposited data

How the results depend on the processing

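With limma 0 of 10 genes were called, where 2 of 14639 genes tested were. At an unadjusted p under 0.05 there were 4 of 10 (0 to 5 with 1 liver left out), where 2963 of all genes were (1745 to 4123 with 1 liver left out). Of the 10, edgeR called 0 and DESeq2 1 (Marco), where they called 0 and 1380 of all genes. With 1 liver left out 0 to 2 were called, the 2 being Clec4f and Marco without TAA1, where 696 of all genes were called. Leaving out any other liver gave 0 to 84 calls over all genes. Of 149 values of single genes under alternatives, 139 kept their sign and side of the threshold, 3 kept their sign and passed, and 7 changed sign. These 7 were C1qa at 0.038 and C1qb at 0.047 without TAA3 (lowest values without a liver -0.78 for both), Vsig4 at -0.091 without TAA2 (highest 1.28 without TAA1), and Cd163. Cd163 was at -0.095 with equal library totals, -0.35 in edgeR, -0.36 in DESeq2 and -0.37 without TAA2 (highest 1.47). The median log2 fold change of the 10 was 0.59 and ran from -0.23 without TAA2 to 1.10 without TAA3. In edgeR and in DESeq2 on whole reads it was 0.06, with 5 genes higher and 5 lower. Equal library totals moved the median of all genes to -0.53, and that of the 10 was then 0.07. The number of genes without overlap was 1 in the main setting, 0 with a minimum value of 10, which removed Timd4, 2 with quantile scaling, 3 with equal library totals, and 2 to 5 with 1 liver left out. In either direction the share of all genes without overlap was 27.4% in the main setting, 28.3%, 25.2% and 28.6% in those 3 settings, and 32.9% to 45.5% with 1 liver left out. With the column number as a replicate block 0 were called and the median was 0.59. Between libraries with the same number, the correlation of deviations across genes was -0.163, 0.0295 and -0.211. The vehicle columns are mapped to no single sample, and whether libraries share a batch was not tested. Depth limits Timd4 most, with at most 14 reads per library; the cause of the other shifts was not tested.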
